A study of Saccharomyces cerevisiae with 8 samples.

Results

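The genes described here encode the subunits of the 3 nuclear RNA polymerases of budding yeast, Saccharomyces cerevisiae, with 4 factors that work directly on Pol I or Pol III, RRN3, MAF1, BRF1 and BDP1. They were taken by systematic name from a deposited count table of ribosome footprints and total RNA, and all 35 of the listed genes were present among its 5545 genes. Of these, 7 belong to Pol I alone, 7 to Pol II alone and 10 to Pol III alone, 2 are shared by Pol I and III, 5 are shared by all 3 enzymes, and 4 are the factors. All cells were of mating type a and carried ura3-52 and leu2. In all of them LEU2 replaced SPE1 (written spel in the labels) and SPE2, which encode ornithine and S-adenosylmethionine decarboxylase, so the cells make no spermidine of their own. Cultures at 30 °C in SD medium held 10 µM added spermidine or none (0 µM) and were started at an optical density of 0.025 and collected at 0.6 to 0.7. Footprints of 17 to 34 nucleotides and total RNA were each sequenced in 2 libraries at 10 µM and 2 libraries at 0 µM, 8 libraries in all. Nothing in the labels says that the replicates came from separate cultures, so each p-value reflects the scatter of the libraries at hand, perhaps technical. A strain that makes its own polyamines was not analysed here.

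Pol I transcribes the repeated gene for the large ribosomal RNAs, Pol II transcribes messenger RNAs, and Pol III transcribes transfer RNAs and 5S ribosomal RNA. The enzymes are built on one plan, with a pair of large catalytic subunits, an assembly pair, a stalk and small common subunits. Pol I and Pol III carry added subunits that resemble general factors of Pol II. In yeast the output of Pol I and Pol III follows growth conditions. Rrn3 joins Pol I to its promoter factors, Brf1 and Bdp1 are parts of the Pol III initiation factor TFIIIB, and Maf1 represses Pol III.

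Totals ran from 3324344 to 7089928 counts in footprint libraries and from 1786419 to 2884632 in RNA libraries. Values below are CPM, counts scaled to each library's composition-adjusted total, and a single count was worth 0.142 to 0.522 CPM. Each polymerase gene had at least 23 counts in every library. The deleted SPE1 and SPE2 held 4 to 15 and 3 to 62 counts per library. The 6 a-cell markers lay between 30.0 and 571 CPM, and the 3 measured markers of the other mating type between 0.604 and 38.0 CPM, the highest of them SAG1. Replicates differed by more than counting noise in each group.

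With 10 µM spermidine many polymerase genes were lower in footprints or RNA. None was called higher in either assay by edgeR, DESeq2 or limma voom. Nor was any of the polymerase genes higher in either assay at an unadjusted edgeR p below 0.05. Together they took 0.332% to 0.362% of the footprint counts at 10 µM, against 0.480% to 0.488% at 0 µM, and 0.405% to 0.412% of the RNA counts at 10 µM, against 0.519% to 0.552% at 0 µM. In footprints 17 of the 35 were lower, or 48.6%, by edgeR at an adjusted p below 0.05 over all genes. Of all tested genes, 38.5% were called in footprints, 19.8% lower and 18.7% higher. In RNA 12 of the 35 were lower, or 34.3%. Of all tested genes, 21.9% were called in RNA, 13.5% lower and 8.45% higher. Their median log2 change, 10 over 0 µM, was -0.36 in footprints and -0.33 in RNA, where the medians of all tested genes were -0.02 and 0.0016. The genes called lower in both assays were 9, namely RPA190, RPA135, RPA49, RPA14, RPA12, RPC25, RPB8, RPB10 and RRN3. A further 8 were called in footprints alone and 3 in RNA alone, which were RPO21, RPB2 and RPB5, and 15 in neither. Whether the assays differ is tested with the footprint to RNA ratio, further on. Replicate values did not overlap between concentrations for 27 of the 35 genes in footprints, where this held for 72.6% of all tested genes, and for 27 in RNA, where it held for 60.1%. These are bulk libraries, in which fewer cells with an RNA and less RNA per cell cannot be told apart. With DESeq2 the footprint count was 11, and 1479 of all tested genes were called, against 2113 with edgeR. The footprint count was lower still without footprint replicate 1 at 10 µM, where it was lowest, or without footprint replicate 2 at 0 µM. The RNA count with DESeq2 was 7, and 840 of all tested genes were called, against 1203 with edgeR. It was lower still without RNA replicate 1 at 10 µM. In each of these omissions fewer of all tested genes were called as well.

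**Figure D1:**
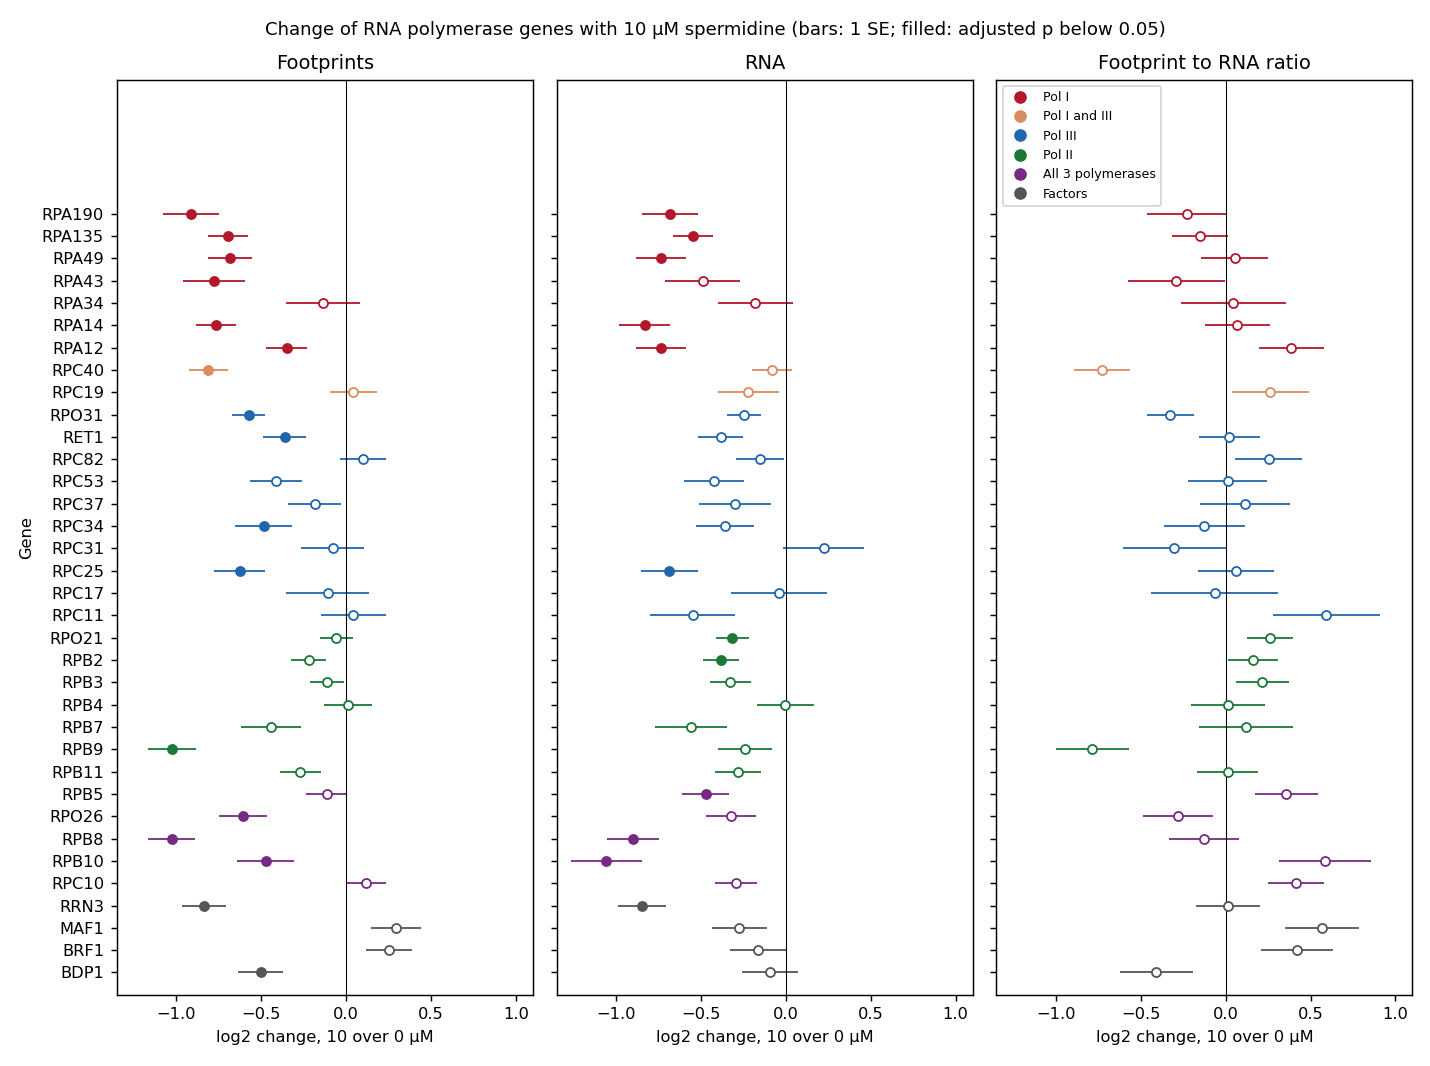
Log2 change of each polymerase gene with 10 µM over 0 µM spermidine in footprints, RNA and the footprint to RNA ratio, with bars of 1 SE; filled points have an edgeR adjusted p below 0.05. Filled points lie left of zero in the footprint and RNA panels, and the ratio panel has none.

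Of the 3 enzymes, Pol I had the most genes called. Of its 7 own genes, 6 were lower in footprints and 5 in RNA, where 19.8% and 13.5% of all tested genes were called lower. Their median log2 change was -0.70 in footprints and -0.68 in RNA. RPA190, the largest catalytic subunit (YOR341W; chromosome XV, 960987 to 965981 in R64), had footprints of 259.7 and 351 CPM at 10 µM, against 545 and 607 CPM at 0 µM (log2 change -0.91, SE 0.16, edgeR adjusted p = 0.0023). RNA of RPA190 stood at 449.7 and 521 CPM at 10 µM, against 686 and 872 CPM at 0 µM (log2 change -0.68, SE 0.17, edgeR adjusted p = 0.016). Neither assay overlapped between concentrations, and the 2 RNA libraries at 0 µM were far apart. The RNA call was lost without replicate 1 at 10 µM (log2 change -0.58) and without replicate 2 at 0 µM (-0.50). RPA135, the second largest subunit (YPR010C; chromosome XVI, 577585 to 581196), had footprints of 289 and 364 CPM at 10 µM, against 538 and 521 CPM at 0 µM (log2 change -0.70, SE 0.12, edgeR adjusted p = 0.0016). RPA135 RNA was 646 and 698 CPM at 10 µM, against 983 and 978 CPM at 0 µM (log2 change -0.55, SE 0.12, edgeR adjusted p = 0.0095). All libraries at 10 µM lay below all at 0 µM, and the RNA call was lost without RNA replicate 1 at 10 µM (log2 change -0.49).

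Footprints of RPA49, which with Rpa34 forms a dimer like the general factor TFIIF, were 92.4 and 120.4 CPM at 10 µM, against 171 and 171 CPM at 0 µM (log2 change -0.68, SE 0.13, edgeR adjusted p = 0.003). RPA49 RNA was 59.5 and 66.2 CPM at 10 µM, against 101 and 108 CPM at 0 µM (log2 change -0.73, SE 0.15, edgeR adjusted p = 0.0068). This call was lost without RNA replicate 1 at 10 µM, where the change was -0.66. The partner RPA34 was not called: its footprints were 206 and 209 CPM at 10 µM, against 226 and 229.8 CPM at 0 µM (log2 change -0.14, SE 0.22, edgeR adjusted p = 0.65). RPA34 RNA stood at 244 and 278 CPM at 10 µM, against 210.1 and 379.9 CPM at 0 µM, so its libraries at 0 µM enclosed those at 10 µM. Without RNA replicate 1 at 0 µM RPA34 RNA was called, and fell by 0.55 on the log2 scale. The stalk of Pol I is made of Rpa43, which contacts Rrn3, and Rpa14. RPA14 had footprints of 37.9 and 41.1 CPM at 10 µM, against 67.5 and 67.03 CPM at 0 µM (log2 change -0.76, SE 0.12, edgeR adjusted p = 0.00096). In RNA, RPA14 had 23.5 and 22.1 CPM at 10 µM, against 42.6 and 38.6 CPM at 0 µM (log2 change -0.83, SE 0.15, edgeR adjusted p = 0.0039). Both RPA14 calls held in every setting tried. RPA14 overlaps the annotated YDR157W by 8 bases. RPA43 (chromosome XV, 959202 to 960182) had footprints of 59.2 and 68.3 CPM at 10 µM, against 98.1 and 121 CPM at 0 µM (log2 change -0.78, SE 0.18, edgeR adjusted p = 0.0083). That call did not survive the omission of footprint replicate 1 at 10 µM (-0.68) or of replicate 2 at 0 µM (-0.59). In RNA RPA43 had 30.8 and 51.3 CPM at 10 µM, against 59.5 and 56.02 CPM at 0 µM, which did not pass the test (log2 change -0.49, SE 0.22, edgeR adjusted p = 0.15). Both RNA libraries at 10 µM were below those at 0 µM, 1 of them by little. Without that one, RNA replicate 2, the RPA43 RNA change was -0.91 and was called. RPA43 and RPA190 are read in opposite directions from the 804 bases between them, and no other members lie as close to each other. RPA12, a small subunit that helps cleave RNA, had footprints of 36.03 and 38.7 CPM at 10 µM, against 47.7 and 47.5 CPM at 0 µM (log2 change -0.35, SE 0.12, edgeR adjusted p = 0.045). In RNA, RPA12 had 24.5 and 27.2 CPM at 10 µM, against 44.6 and 41.7 CPM at 0 µM (log2 change -0.74, SE 0.15, edgeR adjusted p = 0.0066). Its footprint call was close to the threshold and was lost in all 8 omissions of 1 library, with values from -0.40 to -0.30, as well as with RLE scaling, with a mean count of at least 100, with footprints fitted alone and with DESeq2. Its RNA call was lost with DESeq2.

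Rpc40 and Rpc19 form the assembly pair of both Pol I and Pol III, and 1 of their genes was called. RPC40 (YPR110C; chromosome XVI, 745828 to 746835) had footprints of 163 and 179.8 CPM at 10 µM, against 294 and 307 CPM at 0 µM (log2 change -0.81, SE 0.12, edgeR adjusted p = 0.00065). Its RNA was 228 and 272 CPM at 10 µM, against 255 and 275 CPM at 0 µM (log2 change -0.08, SE 0.12, edgeR adjusted p = 0.68). Footprints of RPC40 did not overlap between concentrations while its RNA did. RPC19 footprints were 51.7 and 59.4 CPM at 10 µM, against 50.6 and 57.4 CPM at 0 µM (log2 change 0.04, SE 0.14, edgeR adjusted p = 0.83). RPC19 RNA was 28.2 and 26.2 CPM at 10 µM, against 35.2 and 28.4 CPM at 0 µM (log2 change -0.22, SE 0.18, edgeR adjusted p = 0.44). The RPC40 footprint call held in every setting tried, with values from -0.89 to -0.74 over the omissions of 1 library.

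**Figure D2:**
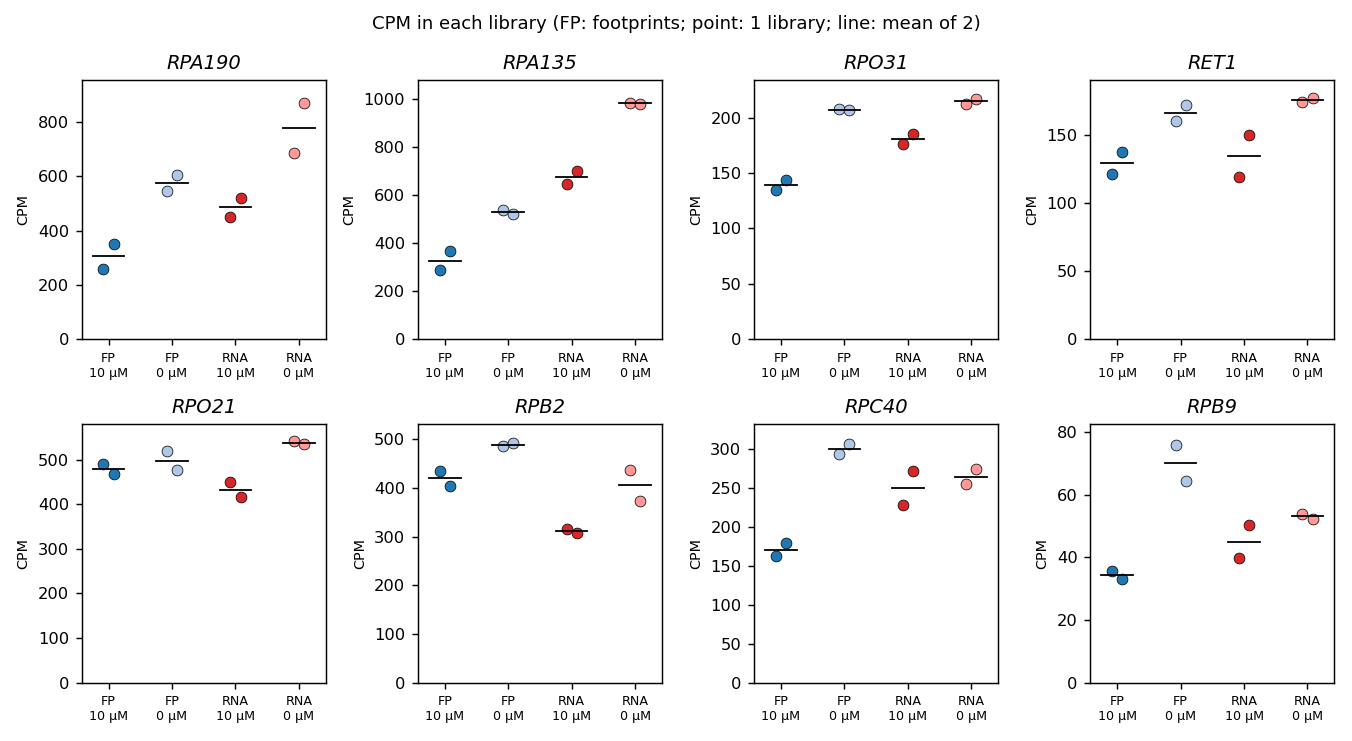
CPM of the catalytic subunit genes of the 3 polymerases, RPC40 and RPB9 in each library, with footprints (FP) and RNA at 10 and 0 µM; each point is 1 library and each line the mean of 2. RPC40 footprints stand at 163 and 179.8 CPM at 10 µM, against 294 and 307 CPM at 0 µM, while its RNA points overlap.

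Of the 10 genes of Pol III alone, 4 were lower in footprints (RPO31, RET1, RPC34 and RPC25) and 1 in RNA (RPC25). Their median log2 change was -0.27 in footprints and -0.33 in RNA. Among all tested genes 19.8% were called lower in footprints and 13.5% in RNA. With DESeq2 the footprint count for Pol III was 1. RPO31, the largest catalytic subunit (YOR116C; chromosome XV, 539763 to 544145), had footprints of 134 and 144 CPM at 10 µM, against 208 and 207 CPM at 0 µM (log2 change -0.57, SE 0.10, edgeR adjusted p = 0.0016). RPO31 RNA, at 177 and 185 CPM at 10 µM, against 212 and 217 CPM at 0 µM, did not pass the test (log2 change -0.25, SE 0.10, edgeR adjusted p = 0.11). The libraries at 10 µM were below those at 0 µM in both assays, and the footprint call held in every setting tried. RET1, the second largest subunit (YOR207C; chromosome XV, 730008 to 733457), had footprints of 121 and 138 CPM at 10 µM, against 161 and 172 CPM at 0 µM (log2 change -0.36, SE 0.13, edgeR adjusted p = 0.045). RET1 RNA was 119.6 and 150.3 CPM at 10 µM, against 175 and 177 CPM at 0 µM (log2 change -0.38, SE 0.13, edgeR adjusted p = 0.065). The RET1 footprint call was marginal. It was lost in 6 of the 8 omissions of 1 library, over which values ran from -0.46 to -0.27, and also with RLE scaling, with a mean count of at least 100 and with DESeq2. The RET1 RNA change was -0.56 and called without RNA replicate 2 at 10 µM. RPC25, a stalk subunit, had footprints of 24.7 and 30.8 CPM at 10 µM, against 42.7 and 43.5 CPM at 0 µM (log2 change -0.63, SE 0.15, edgeR adjusted p = 0.009). In RNA, RPC25 had 27.7 and 33.3 CPM at 10 µM, against 46.5 and 51.6 CPM at 0 µM (log2 change -0.69, SE 0.17, edgeR adjusted p = 0.017). RPC25 was not called in footprints without replicate 1 at 10 µM (-0.48) or replicate 2 at 0 µM (-0.59). It was not called in RNA without replicate 1 at 10 µM (-0.56) or replicate 2 at 0 µM (-0.61), nor in either assay with DESeq2. Its stalk partner RPC17 did not pass the test in either assay (log2 change -0.11, SE 0.25, in footprints and -0.04, SE 0.28, in RNA).

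Rpc82, Rpc34 and Rpc31 form the trimer with which Pol III meets its initiation factor. RPC34 footprints were 27.3 and 30.8 CPM at 10 µM, against 42.1 and 39.6 CPM at 0 µM (log2 change -0.48, SE 0.17, edgeR adjusted p = 0.045). The RPC34 call was lost with DESeq2, with a mean count of at least 100 and without any 1 of the 4 footprint libraries, and over all omissions values ran from -0.58 to -0.40. RPC34 RNA was 47.00 and 63.1 CPM at 10 µM, against 63.4 and 77.5 CPM at 0 µM, a difference that did not pass the test (log2 change -0.36, SE 0.17, edgeR adjusted p = 0.17). RPC82 footprints were 72.99 and 74.4 CPM at 10 µM, against 66.3 and 71.01 CPM at 0 µM (log2 change 0.10, SE 0.13, edgeR adjusted p = 0.59). Its footprint libraries at 10 µM were slightly the higher ones. RPC31 footprints were 22.9 and 22.8 CPM at 10 µM, against 20.7 and 27.04 CPM at 0 µM (log2 change -0.08, SE 0.19, edgeR adjusted p = 0.77). Of the trimer, 1 gene was called lower and 2 were not called. Rpc53 and Rpc37 form the TFIIF-like dimer of Pol III. RPC53 differed by -0.41 in footprints and -0.42 in RNA (edgeR adjusted p = 0.056 and 0.12). Neither was called, though the footprint difference passed the test when either RNA replicate at 0 µM was left out (-0.39 and -0.39), and also with library totals, with limma voom and with footprints fitted alone. RPC37 differed by -0.18 and -0.30 in these assays, with adjusted p of 0.38 and 0.37 by edgeR. RPC11, which cleaves RNA at termination, had footprints of 22.6 and 26.4 CPM at 10 µM, against 25.6 and 22.3 CPM at 0 µM. RPC11 RNA stood at 12.01 and 18.5 CPM at 10 µM, against 19.6 and 24.9 CPM at 0 µM. Its footprints overlapped and its RNA did not, yet neither difference passed the test (edgeR adjusted p = 0.88 and 0.15). The lowest count of any member in any library was the 23 counts of RPC11 in 1 RNA library at 10 µM. RPC82 was also not called in RNA (-0.15), nor was RPC31 (0.22), the only member whose RNA change was above zero.

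Of the 7 genes of Pol II alone, 1 was lower in footprints (RPB9) and 2 in RNA (RPO21 and RPB2). Their median log2 change was -0.22 in footprints and -0.32 in RNA. The shares of all tested genes called lower were 19.8% in footprints and 13.5% in RNA. RPO21, which encodes Rpb1, the largest subunit with the repeated C-terminal domain (YDL140C; chromosome IV, 205360 to 210561), had footprints of 489.6 and 467 CPM at 10 µM, against 519 and 476 CPM at 0 µM (log2 change -0.06, SE 0.10, edgeR adjusted p = 0.68). RPO21 RNA was 449 and 416 CPM at 10 µM, against 541 and 534 CPM at 0 µM (log2 change -0.32, SE 0.10, edgeR adjusted p = 0.045). The footprint values overlapped between concentrations and the RNA values did not. RPB2, the second largest subunit (YOR151C; chromosome XV, 612997 to 616671), had footprints of 434 and 405 CPM at 10 µM, against 485 and 492 CPM at 0 µM (log2 change -0.22, SE 0.10, edgeR adjusted p = 0.12). RPB2 RNA was 315 and 306 CPM at 10 µM, against 437 and 373 CPM at 0 µM (log2 change -0.38, SE 0.11, edgeR adjusted p = 0.032). Both RNA calls were close to the threshold. RPO21 lost its call in all 8 omissions of 1 library (-0.37 to -0.26) and RPB2 in 5 of them (-0.49 to -0.27). Both lost it with RLE scaling, with library totals, with RNA fitted alone and with DESeq2.

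RPB9, a small subunit that bears on start site choice and fidelity (YGL070C; chromosome VII, 374459 to 374827), was the only gene of Pol II alone called in footprints. Its footprints were 35.7 and 33.3 CPM at 10 µM, against 75.9 and 64.5 CPM at 0 µM, a 2.03-fold fall (log2 change -1.02, SE 0.14, edgeR adjusted p = 0.00057). RPB9 RNA was 39.7 and 50.3 CPM at 10 µM, against 53.98 and 52.3 CPM at 0 µM (log2 change -0.24, SE 0.16, edgeR adjusted p = 0.33). Neither assay overlapped between concentrations, and the footprint call held in every setting tried, from -1.12 to -0.91 over the omissions of 1 library. RPB7 of the stalk had footprints of 39.8 and 35.2 CPM at 10 µM, against 52.8 and 48.8 CPM at 0 µM. RPB7 RNA stood at 22.5 and 34.9 CPM at 10 µM, against 37.6 and 46.8 CPM at 0 µM. Libraries at 10 µM were the lower ones in both assays, but RPB7 was not called (edgeR adjusted p = 0.076 and 0.09). RPB7 passed the test in footprints when either RNA replicate at 10 µM was left out (-0.44 and -0.44) and in RNA without replicate 2 at 10 µM (-0.91). Its footprints also passed with library totals and with footprints fitted alone. Its stalk partner RPB4 overlapped in both assays and had footprints of 60.5 and 57.98 CPM at 10 µM, against 60.03 and 57.4 CPM at 0 µM. RPB4 RNA stood at 51.2 and 41.04 CPM at 10 µM, against 52.03 and 40.7 CPM at 0 µM. The assembly pair RPB3 and RPB11 differed by -0.11 and -0.27 in footprints and by -0.33 and -0.28 in RNA, and none of these passed the test (smallest edgeR adjusted p 0.079).

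Of the 5 subunits common to all 3 enzymes, 3 were lower in footprints (RPB8, RPO26 and RPB10) and 3 in RNA (RPB8, RPB10 and RPB5). Calls of lower covered 19.8% of all tested genes in footprints and 13.5% in RNA. RPC10 was called in neither assay. RPB8 (YOR224C; chromosome XV, 760825 to 761265) had the largest footprint change of the 35 genes. RPB8 footprints were 73.9 and 86.1 CPM at 10 µM, against 165 and 162 CPM at 0 µM, a 2.04-fold fall (log2 change -1.03, SE 0.14, edgeR adjusted p = 0.00046). RPB8 RNA was 63.2 and 63.6 CPM at 10 µM, against 135 and 102 CPM at 0 µM (log2 change -0.90, SE 0.15, edgeR adjusted p = 0.0028). Both RPB8 calls held in every setting tried. RPB10 had the largest RNA change, at 28.2 and 23.1 CPM at 10 µM, against 52.8 and 53.97 CPM at 0 µM (log2 change -1.06, SE 0.21, edgeR adjusted p = 0.0062). RPB10 footprints were 39.5 and 57.98 CPM at 10 µM, against 65.9 and 70.3 CPM at 0 µM (log2 change -0.47, SE 0.17, edgeR adjusted p = 0.048). The RPB10 footprint libraries at 10 µM were far apart. Its footprint change was -0.23 without replicate 1 and -0.79 without replicate 2 at 10 µM, and the call was lost in 7 of the 8 omissions, with RLE scaling, with a mean count of at least 100, with footprints fitted alone and with DESeq2. The RPB10 RNA call was lost without RNA replicate 2 at 10 µM (-0.92).

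RPO26, which encodes Rpb6, had footprints of 84.9 and 96.6 CPM at 10 µM, against 139.6 and 137 CPM at 0 µM (log2 change -0.60, SE 0.14, edgeR adjusted p = 0.0083). This call fell away with footprint replicate 1 at 10 µM omitted (-0.52). RPO26 RNA was 103 and 142 CPM at 10 µM, against 155 and 152 CPM at 0 µM (log2 change -0.32, SE 0.15, edgeR adjusted p = 0.15), and without the higher library at 10 µM, RNA replicate 2, it was called at -0.57. RPB5, at the jaw of the enzymes, had footprints of 125 and 154 CPM at 10 µM, against 148 and 153 CPM at 0 µM, which overlapped (log2 change -0.11, SE 0.12, edgeR adjusted p = 0.49). RPB5 RNA was 67.4 and 70.8 CPM at 10 µM, against 89.97 and 101 CPM at 0 µM (log2 change -0.47, SE 0.14, edgeR adjusted p = 0.037), and the call was lost in 6 of the 8 omissions of 1 library (-0.56 to -0.38), with RLE scaling, with library totals, with DESeq2 and with limma voom. RPC10, which encodes Rpb12, had footprints of 49.5 and 51.1 CPM at 10 µM, against 44.3 and 48.1 CPM at 0 µM. RPC10 RNA stood at 53.3 and 54.4 CPM at 10 µM, against 67.7 and 64.2 CPM at 0 µM. It was higher at 10 µM in footprints and lower in RNA, and neither difference passed the test (log2 change 0.12 and -0.29, edgeR adjusted p = 0.43 and 0.12).

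Among the factors, the Pol I factor RRN3 fell in both assays. RRN3 (YKL125W; chromosome XI, 208247 to 210130) had footprints of 56.1 and 64.3 CPM at 10 µM, against 114 and 102 CPM at 0 µM (log2 change -0.83, SE 0.13, edgeR adjusted p = 0.001). RRN3 RNA was 64.8 and 63.1 CPM at 10 µM, against 126 and 105 CPM at 0 µM (log2 change -0.85, SE 0.14, edgeR adjusted p = 0.0025). Libraries at 10 µM lay below those at 0 µM throughout, and both calls held in every setting tried. Of the Pol III factors, BDP1 fell in footprints, at 34.5 and 41.1 CPM at 10 µM, against 51.6 and 55.8 CPM at 0 µM (log2 change -0.50, SE 0.13, edgeR adjusted p = 0.015). BDP1 RNA was 31.9 and 31.8 CPM at 10 µM, against 36.4 and 31.8 CPM at 0 µM (log2 change -0.09, SE 0.16, edgeR adjusted p = 0.74). The BDP1 footprint call was lost with DESeq2, with footprint replicate 1 at 10 µM omitted (-0.39) and with replicate 2 at 0 µM omitted (-0.42). BRF1 footprints were 45.7 and 52.8 CPM at 10 µM, against 42.5 and 40.6 CPM at 0 µM (log2 change 0.25, SE 0.13, edgeR adjusted p = 0.16). BRF1 RNA was 34.99 and 29.2 CPM at 10 µM, against 37.9 and 34.2 CPM at 0 µM (log2 change -0.16, SE 0.16, edgeR adjusted p = 0.53). MAF1, the Pol III repressor, had footprints of 38.5 and 49.2 CPM at 10 µM, against 36.1 and 35.9 CPM at 0 µM (log2 change 0.29, SE 0.15, edgeR adjusted p = 0.14). MAF1 RNA was 45.96 and 45.1 CPM at 10 µM, against 50.1 and 59.8 CPM at 0 µM (log2 change -0.27, SE 0.16, edgeR adjusted p = 0.27). For BRF1 and MAF1 each footprint library at 10 µM was above both at 0 µM, by differences that did not pass the test.

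Subunits that hold the same place in the 3 enzymes can be set side by side by their footprint changes; differences between genes were not tested. For the largest subunits the log2 change was -0.91 ± 0.16 (SE) in Pol I, -0.06 ± 0.10 in Pol II and -0.57 ± 0.10 in Pol III. For the second largest it was -0.70 ± 0.12 in Pol I, -0.22 ± 0.10 in Pol II and -0.36 ± 0.13 in Pol III. In the stalks, the pairs were -0.78 and -0.76 for RPA43 and RPA14, -0.44 and 0.01 for RPB7 and RPB4, and -0.63 and -0.11 for RPC25 and RPC17. For both catalytic subunits the order from the most negative was Pol I, Pol III, Pol II. The small subunits related to cleavage followed another order, with -0.35 for RPA12, -1.02 for RPB9 and 0.04 for RPC11. In RNA the log2 changes of the largest subunits were -0.68 ± 0.17, -0.32 ± 0.10 and -0.25 ± 0.10 in Pol I, II and III. Those of RPO21 and RPO31 lay within their SEs of each other.

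Ratios between catalytic genes within a library need no scaling between libraries. Footprint counts per kb of RPA190 over those of RPO21 were 0.552 and 0.783 at 10 µM, against 1.09 and 1.33 at 0 µM. For RPA135 over RPB2 the footprint ratios were 0.676 and 0.915 at 10 µM, against 1.13 and 1.08 at 0 µM. The ranges did not overlap for either pair, and the Pol I gene was below its Pol II counterpart at 10 µM and above it at 0 µM. RPO31 over RPO21 gave 0.326 and 0.366 at 10 µM, against 0.475 and 0.516 at 0 µM in footprints, also without overlap, while RET1 over RPB2 gave 0.297 and 0.363 at 10 µM, against 0.353 and 0.373 at 0 µM, which overlapped. In RNA, RPA190 over RPO21 was 1.04 and 1.31 at 10 µM, against 1.32 and 1.70 at 0 µM, without overlap by a narrow margin, and RPA135 over RPB2 was 2.09 and 2.32 at 10 µM, against 2.29 and 2.67 at 0 µM, with overlap. RNA ratios of RPO31 over RPO21 were 0.467 and 0.529 at 10 µM, against 0.466 and 0.482 at 0 µM, and they overlapped. With 2 libraries a group an exact permutation test of a ratio, two-sided, cannot go below 0.333, so no p is given.

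**Figure D3:**
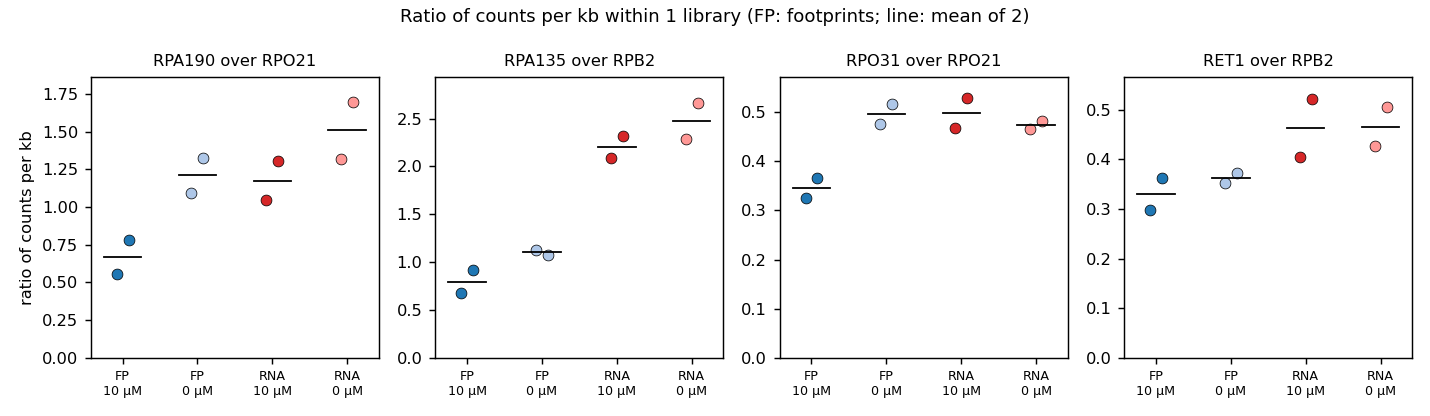
Ratio of counts per kb between catalytic subunit genes of Pol I or Pol III and their Pol II counterparts within each library, for footprints (FP) and RNA at 10 and 0 µM; each point is 1 library and each line the mean of 2. RPA190 over RPO21 in footprints lies at 0.552 and 0.783 at 10 µM, against 1.09 and 1.33 at 0 µM.

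Levels between genes were compared as CPM per kilobase of annotated gene span, which holds no untranslated regions and, for RPO26 and MAF1, includes an intron. In footprint libraries the median over the genes of Pol I alone was 79.9 and 99.3 at 10 µM, against 137 and 137 at 0 µM. For Pol II alone the medians were 96.8 and 90.2 at 10 µM, against 112 and 103 at 0 µM. For Pol III alone they were 35.6 and 32.8 at 10 µM, against 44.3 and 43.1 at 0 µM. The 5 common subunits stood at 185 and 237 at 10 µM, against 257 and 252 at 0 µM, above each set of single-enzyme genes in every footprint library. Their genes are short, at 213 to 648 bases, and an effect of gene length on these levels was not tested. In RNA the Pol I median was 64.9 and 71.9 at 10 µM, against 118 and 110.3 at 0 µM. The Pol II median in RNA was 85.7 and 79.9 at 10 µM, against 104 and 102 at 0 µM, and the Pol III median 38.2 and 42.9 at 10 µM, against 46.1 and 53.1 at 0 µM. The Pol III median thus stood below those of the other enzymes in each of the 8 libraries, and in RNA the Pol I median was below the Pol II median in both libraries at 10 µM and above it in both at 0 µM. In footprints it was above the Pol II median in 1 library at 10 µM and in both at 0 µM.

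Within each enzyme, the subunit genes were spread over several-fold in footprints per kilobase. RPA34 stood at 296 ± 3.63 at 10 µM and 325 ± 3.65 at 0 µM (mean ± SD, n = 2) and was the highest of the 14 Pol I subunits at 10 µM. RPB8, at 181 ± 19.5 at 10 µM and 371 ± 4.07 at 0 µM, was the highest at 0 µM. RPA190, at 61.2 ± 12.97 at 10 µM and 115 ± 8.72 at 0 µM, and RPA43, at 64.97 ± 6.52 at 10 µM and 112 ± 16.3 at 0 µM, were the lowest and did not differ beyond their SDs at either concentration. Highest over lowest came to 4.84-fold at 10 µM and 3.32-fold at 0 µM in Pol I. In Pol II, with 12 subunits, it was 3.25-fold at 10 µM and 4.21-fold at 0 µM, and among its own genes RPB9 was the highest at 0 µM and in the middle at 10 µM (93.5 ± 4.68 at 10 µM and 190.3 ± 21.99 at 0 µM). RPO21, RPB3 and RPB4 lay close together, at 91.95 ± 3.07 at 10 µM and 95.6 ± 5.82 at 0 µM for RPO21, 99.4 ± 2.61 at 10 µM and 107 ± 6.06 at 0 µM for RPB3 and 88.9 ± 2.63 at 10 µM and 88.1 ± 2.84 at 0 µM for RPB4. In Pol III, with 17 subunits, highest over lowest was 7.83-fold at 10 µM and 11.7-fold at 0 µM, with shared subunits at the top and the enzyme's own genes at the bottom. Leaving out the shared subunits, 8 of the 10 Pol III genes lay between 30.2 and 37.6 CPM per kb at 10 µM, against 31.6 and 48.3 at 0 µM, and the other 2, RPC11 and RPC25, stood above them. RPC40 and RPC19, the assembly pair, stood at 169.8 ± 12.1 at 10 µM and 298 ± 8.89 at 0 µM for RPC40 and 129.5 ± 12.8 at 10 µM and 126 ± 11.2 at 0 µM for RPC19, so that RPC40 exceeded its partner by more at 0 µM than at 10 µM.

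**Figure D4:**
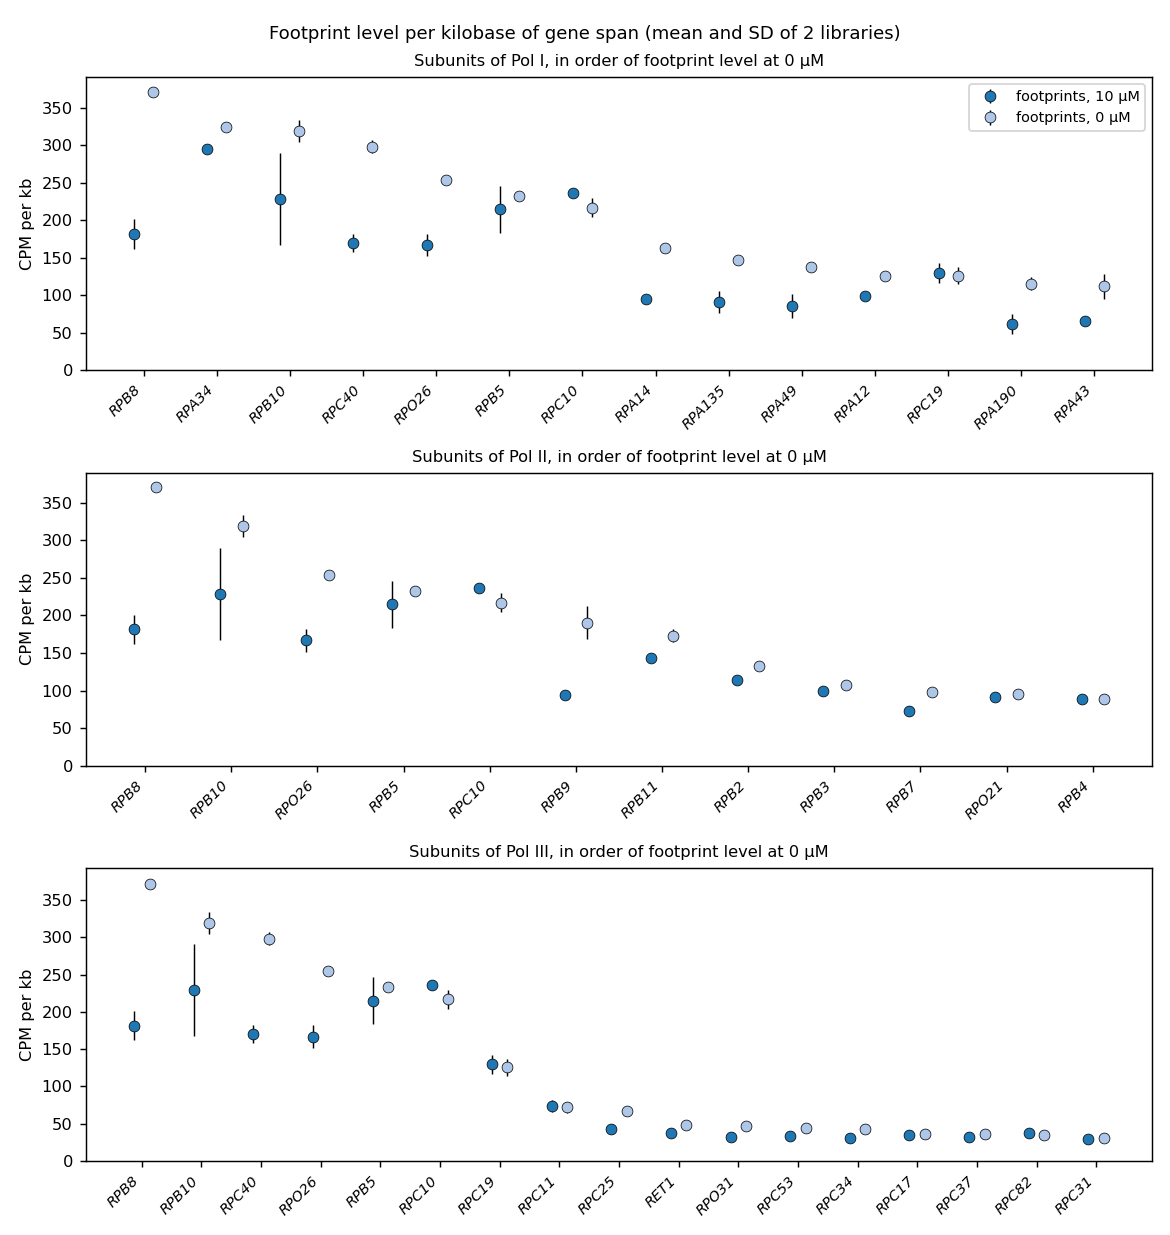
Footprint CPM per kilobase of gene span for each subunit gene of Pol I, II and III, with 10 µM left of 0 µM for each gene, as mean and SD of 2 libraries. RPB8 stands at 181 at 10 µM and 371 at 0 µM, and the genes of Pol III alone lie at the right of the lowest panel.

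Translational efficiency was taken as the ratio of footprint to RNA CPM, and its change as the difference between the footprint and RNA changes. None of the 35 genes passed the test by edgeR. An unadjusted edgeR p below 0.05 was found for 5 of them, and for 1015 of the 5488 tested genes. Of all tested genes 1.79% passed, 0.893% higher and 0.893% lower. The count was 0 with limma voom, and 1 gene, RPC40, passed with DESeq2 and with library totals. RPC40 ratios, matched by replicate number, were 0.712 and 0.660 at 10 µM, against 1.15 and 1.12 at 0 µM (log2 change -0.73, SE 0.16, edgeR adjusted p = 0.06). RPB9 ratios were 0.900 and 0.662 at 10 µM, against 1.41 and 1.23 at 0 µM (log2 change -0.79, SE 0.21, edgeR adjusted p = 0.1). The ratios of RPC40 and RPB9 did not overlap between concentrations. Over the omissions of 1 library the differences ran from -0.85 to -0.60 for RPC40 and from -0.94 to -0.60 for RPB9, without passing the test in any. MAF1 ratios were 0.838 and 1.09 at 10 µM, against 0.720 and 0.600 at 0 µM (log2 change 0.57, SE 0.22, edgeR adjusted p = 0.21). RPC10 ratios were 0.929 and 0.940 at 10 µM, against 0.655 and 0.749 at 0 µM (log2 change 0.41, SE 0.17, edgeR adjusted p = 0.23). RPO31 had ratios of 0.761 and 0.778 at 10 µM, against 0.978 and 0.955 at 0 µM (log2 change -0.33, SE 0.14, edgeR adjusted p = 0.25). MAF1 and RPC10 were higher and RPO31 lower at 10 µM, each without overlap and without passing the test. The share of all tested genes whose ratios did not overlap was not computed, so the lack of overlap does not set these genes apart. For CPM that share was 72.6% in footprints and 60.1% in RNA. The median change in efficiency was 0.05 over the genes of Pol I alone, 0.12 over those of Pol II and 0.02 over those of Pol III, where all tested genes had a median of 0.05. Over the omissions of 1 library these medians ran from -0.15 to 0.13 for Pol I, from 0.05 to 0.21 for Pol II and from -0.08 to 0.13 for Pol III. The Pol I median was negative without footprint replicate 2 at 10 µM (-0.15), RNA replicate 1 at 10 µM (-0.05) or RNA replicate 2 at 0 µM (-0.12). The Pol III median was negative in those omissions too (-0.03, -0.08 and -0.02) and without footprint replicate 1 at 0 µM (-0.03). As levels, ratios ranged among members at 10 µM from 0.485 for RPA135 to 2.04 for RPC19, and at 0 µM from 0.540 for RPA135 to 1.89 for RPA43.

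**Figure D5:**
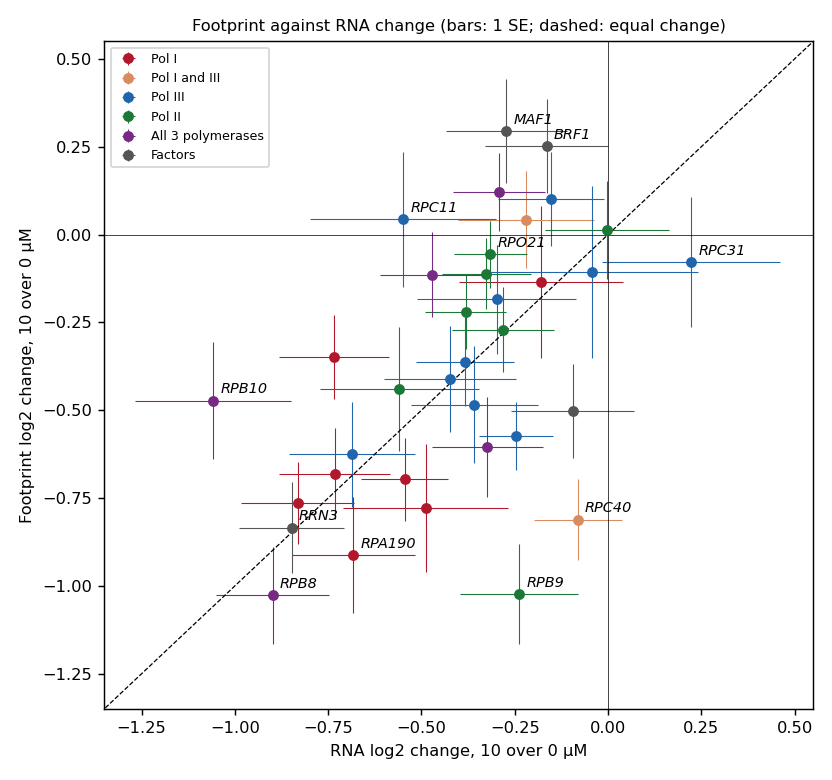
Footprint log2 change against RNA log2 change for the 35 genes, 10 over 0 µM, with bars of 1 SE and a dashed line of equal change. RPC40 (-0.08 in RNA, -0.81 in footprints) and RPB9 (-0.24, -1.02) lie below the line, and most genes lie below zero on both axes.

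Genes that work with the polymerases but are not their subunits were taken as 4 lists, and in 2 of these genes were called in both directions in footprints. Of all tested genes, 38.5% were called in footprints, 19.8% lower and 18.7% higher, and 21.9% in RNA, 13.5% lower and 8.45% higher. No list was tested against these shares. Of 9 Pol I initiation genes, 3 were lower and 1 higher in footprints, and 1 was lower and 1 higher in RNA (median -0.10 in footprints and 0.01 in RNA). RRN11, of the core factor, had footprints of 4.39 and 3.43 CPM at 10 µM, against 9.87 and 9.96 CPM at 0 µM (log2 change -1.36, SE 0.26, edgeR adjusted p = 0.003). These rest on few footprint counts, 14 and 14 at 10 µM, against 49 and 70 at 0 µM. SPT15, the TATA-binding protein used by all 3 enzymes, had 63.6 and 72.9 CPM at 10 µM, against 40.3 and 43.8 CPM at 0 µM (log2 change 0.70, SE 0.12, edgeR adjusted p = 0.0019). HMO1, an HMG-box protein of the ribosomal DNA, had 248 and 255 CPM at 10 µM, against 325 and 315 CPM at 0 µM (log2 change -0.34, SE 0.09, edgeR adjusted p = 0.018). RRN11 and HMO1 were lower and SPT15 higher at 10 µM. HMO1 lost its call with DESeq2 and without any 1 of the footprint libraries, and ran from -0.36 to -0.32 over all omissions. HMO1 RNA changed by -0.51 (edgeR adjusted p = 0.0066), a call lost without RNA replicate 2 at 10 µM (-0.46). RNA of UAF30, of the upstream activating factor, rose by 1.04 (edgeR adjusted p = 0.045), a call lost in 7 of the 8 omissions of 1 library (0.63 to 1.35). Of 7 Pol III initiation genes, the subunits of TFIIIC and the 5S factor PZF1, only PZF1 was called in footprints (-0.43, edgeR adjusted p = 0.048), and it lost the call in every omission of 1 library (-0.54 to -0.35). None of the 7 was called in RNA by edgeR, DESeq2 or limma voom. In RNA 2 of them had an unadjusted edgeR p below 0.05, as did 1914 of the 5488 tested genes.

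Of 19 general factors of Pol II, 6 were lower in footprints and 3 in RNA, and none was higher (median -0.25 in footprints and -0.14 in RNA). Over all tested genes 19.8% were lower and 18.7% higher in footprints, and 13.5% lower and 8.45% higher in RNA. TFG1, the large subunit of TFIIF, had footprints of 105 and 103 CPM at 10 µM, against 156 and 174 CPM at 0 µM (log2 change -0.67, SE 0.10, edgeR adjusted p = 0.001). TFG1 RNA was 73.6 and 80.5 CPM at 10 µM, against 136 and 131 CPM at 0 µM (log2 change -0.79, SE 0.11, edgeR adjusted p = 0.0014), and both calls held in every setting tried. TFB1, of TFIIH, had 47.9 and 67.3 CPM at 10 µM, against 110.0 and 446 CPM at 0 µM in footprints (log2 change -2.27, SE 0.52, edgeR adjusted p = 0.0075). The 2 TFB1 libraries at 0 µM were far apart. Its change was -0.90 without footprint replicate 2 at 0 µM, and the call was lost without footprint replicate 1 at 10 µM (-2.05). TAF14 changed by -0.39 in footprints and -0.42 in RNA (edgeR adjusted p = 0.019 and 0.045), and CCL1, the cyclin of TFIIH, by -0.59 in RNA (edgeR adjusted p = 0.022). Those calls were lost in 3 of the 8 omissions of 1 library for TAF14 footprints (-0.45 to -0.30), in all 8 for TAF14 RNA (-0.54 to -0.32) and in 4 for CCL1 RNA (-0.64 to -0.54). Of 8 genes for assembly and nuclear import of the enzymes, NPA3, a GTPase needed for import of Pol II, was lower in footprints (-0.55, edgeR adjusted p = 0.0058) and RTR1, a phosphatase of the Pol II C-terminal domain, was higher (0.50, edgeR adjusted p = 0.039). RTR1 lost its call without any 1 of the footprint libraries (0.49 to 0.54), with library totals and with DESeq2. In RNA none of the 8 was called by edgeR, DESeq2 or limma voom. An unadjusted edgeR p below 0.05 was found for 1 of them, and for 1914 of the 5488 tested genes.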

How the data were processed

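The authors deposited whole-number read counts per gene for 8 libraries, 4 of ribosome footprints and 4 of total RNA. The submitters' processing notes name cutadapt, edgeR, Bowtie 1.2.2 and 1.1.2, R64 and sacCer3, with no role for any. For the counted part of a gene, strand and multiply mapped reads, a description is not given in the sources used here. Symbols and coordinates came from a RefSeq gene table of R64, which matched 5543 IDs and left 2.

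Counts were tested in R 4.3.3 with edgeR 4.0.16 (quasi-likelihood): filterByExpr with minimum count 10 and total 15 kept 5488 genes, all 35 members among them, libraries were scaled by TMM over all 8, and 1 model of 4 group means with 4 residual degrees of freedom gave the footprint, RNA and ratio contrasts. Adjusted p-values are Benjamini-Hochberg over all tested genes, called below 0.05. SE is the log2 change over the root of F. Changes are relative to the typical gene. Replicates differed beyond counting noise (chi-square per degree of freedom 5.61 to 10.3). The test was also run on simulated counts with changes in footprints alone, unlike these data, which does not show how well it performs here.

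Members, lists and tests were chosen with earlier results of these data known. Per-library values are given for at most 12 called members per contrast by p, for the catalytic subunits and for the factors; of each list of related genes at most 3 called genes per contrast are named. Per-library values of RPA34, RPC19, RPC82, RPC34, RPC31, RPC11, RPB7, RPB4 and RPC10, and ratios of single genes, were added after their values were seen. Alternatives were 2 other scalings, TMM within each assay, no filter, a mean count of at least 100, DESeq2 1.42.0, limma 3.58.1 voom, each assay alone, a replicate block, and each library left out in turn. A planned motif search in promoters was not run.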

Additional observations from a re-analysis of the deposited data

How the results depend on the processing

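No called change of a member turned its sign under the 17 settings. Of the members called, 9 of 17 in footprints (RPA190, RPA135, RPA49, RPA14, RPC40, RPO31, RPB9, RPB8 and RRN3) and 3 of 12 in RNA (RPA14, RPB8 and RRN3) kept their call in all of them.

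With DESeq2 the Pol II general factors called numbered 2 in footprints and 1 in RNA, and the Pol I initiation genes 2 in footprints. With DESeq2 the members called numbered 11 in footprints, 7 in RNA and 1 in efficiency, of 1479, 840 and 137 genes called in all. With library totals 1 member was called in efficiency, of 120 genes in all. The cause was not tested. At a mean count of at least 100 the Pol III footprint median was -0.40, with 6 of its 10 genes left. Leaving out 1 library gave 9 to 16 members called in footprints, 5 to 12 in RNA, a Pol III footprint median of -0.37 to -0.16, a Pol I RNA median of -0.80 to -0.55 and a Pol I efficiency median of -0.15 to 0.13. The Pol I genes called ran from 4 to 5 in footprints and from 2 to 6 in RNA over these omissions, and those of Pol III from 1 to 4 in footprints. The other medians moved by less than the SD between replicates.

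The libraries share replicate numbers that the labels do not say mark a common culture. Same-numbered libraries deviated together weakly (correlation over genes 0.0344 to 0.23 between groups). With the replicate block 18 members were called in footprints, 13 in RNA and 1 in efficiency, RPC40. These were of 2337, 1378 and 181 genes called in all, against 2113, 1203 and 98 without the block. The lowest count of a member, 23, was that of RPC11 in 1 RNA library. Where 1 library was left out, its partner was assumed to vary like the other groups.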
